A study of Mus musculus with 13 samples.

Results

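The genes described here are 10 sensors, transcription factors and chaperones of the unfolded protein response, the programme by which cells adjust to misfolded protein in the endoplasmic reticulum (ER). They were chosen by name: Ern1, Atf6, Xbp1, Ddit3, Hspa5, Hsp90b1, Calr, Pdia4, Dnajb9 and Herpud1. All 10 were found once each among the 23845 genes of the count table and of the TPM table, and all 10 had enough reads to be tested. The libraries are RNA-seq of 13 lines grown from mammary tumours of FVBN/J mice, of which 6 carry the label wild type (WT) and 7 the label JNK knockout, and the series concerns breast cancer driven by HER2. JNK, the c-Jun N-terminal kinase, has 3 genes (Mapk8, Mapk9 and Mapk10). All lines were grown alike, at first on collagen I with 2% fetal bovine serum and, after 2 passages, on standard dishes with 10% serum, 20 ng/ml EGF and 10 μg/ml insulin. The labels name no agent that provokes ER stress, so the values are read as those of cells in routine culture. Every library comes from its own line. Not stated in the labels are the JNK genes or exons removed, the oncogene allele and its promoter, and the age of the animals. WT replicates 4 and 5 have a number in common in their titles and may stem from 1 animal. In that case they are not independent, and the p-values, which treat all lines as independent, may be too small. WT and knockout titles begin with different letters, and whether colony or handling differed along with genotype cannot be told apart from it.

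The unfolded protein response has a trio of sensors in the ER membrane. IRE1, encoded by Ern1, cuts Xbp1 mRNA so that it codes for an active transcription factor, ATF6 is cut in the Golgi to release its own transcription factor, and PERK (Eif2ak3) slows translation and raises ATF4, which in turn drives Ddit3 (CHOP). XBP1 and ATF6 raise chaperones, oxidoreductases and parts of the machinery that returns misfolded protein for degradation, and BiP (Hspa5) holds the sensors in check while it is free. IRE1 is also known to recruit TRAF2 and so to activate JNK, so of the 10 genes Ern1 acts upstream of the kinase by this route. Gene-level counts measure mRNA and cannot show the cutting of Xbp1 mRNA, the cleavage of ATF6 or any protein.

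Depth differed little, with total expected counts from 38298600 to 46689800 per line. Mapk8 and Mapk9, the check of the labels, fell to 5.76 ± 1.32 from 29.8 ± 5.38 CPM (counts scaled to a common library size) and to 19.3 ± 5.11 from 60.0 ± 6.59 CPM (mean ± SD, n = 7 knockout and 6 WT lines), with no overlap of the groups for either gene (edgeR adjusted p = 9.1e-05 and 0.00091). Reads of Mapk10 numbered 14 in all WT lines together and 9 in all knockout lines. For the labelled epithelial origin, the summed CPM of 11 epithelial markers was 6830 to 8275 in WT and 6249 to 21877 in knockout lines. The upper end was knockout replicate 2, where Krt5 (12403 CPM) and Krt14 (8337 CPM) made up most of the sum. That line was the lowest of all for Epcam, Cdh1 (92.3 CPM), Krt8, Krt18, Krt7, Cldn4, Cldn7 (4.64 CPM) and Esrp1, but not for Krt19. The sum therefore does not show epithelial origin in that line. Within that sum the kind of keratin differed between the groups. The basal keratin Krt5 was at most 1.01 CPM in WT lines and 84.2 to 12403 CPM in knockout lines, Krt14 was 47.8 to 232 CPM against 313 to 8337 CPM, and the luminal keratin Krt18 was 1616 to 2451 CPM against 563 to 1219 CPM, each without overlap (edgeR adjusted p = 0.0020, 0.0026 and 0.0026). The other keratins of the list did not all go the same way. Krt8 was lower in knockout lines (edgeR adjusted p = 0.047), while Krt7 and Krt19 were not called (adjusted p = 0.33 and 0.95). Krt7 was 450 to 1147 CPM in WT and 20.4 to 2531 CPM in knockout lines, 5 above every WT line and 1 below. These keratin differences move with every comparison of knockout and WT lines below, and their part in those comparisons was not tested. Fibroblast markers differed as well, with 2 of 8 tested genes lower in knockout lines (Col1a1 and Col1a2) and 0 higher. Most of the WT level of both lay in replicate 3 (184 and 160 CPM). In the other WT lines Col1a1 was 1.81 to 9.46 CPM and Col1a2 0.472 to 12.4 CPM, beside at most 3.41 and 0.609 CPM in knockout lines. Fn1 was 576 to 4773 CPM in WT lines and 120.1 to 3147 CPM in knockout lines, 4 of them below every WT line (adjusted p = 0.21). Of the other cell types, the highest immune marker was Cd68 at up to 18.7 CPM (with 0 reads of Tyrobp), endothelial markers summed to at most 1.54 CPM and adipocyte markers to at most 0.822 CPM. Markers of plasma cells, a cell type with a very active unfolded protein response, were led by Sdc1, which epithelium also makes, while Jchain (listed as Igj), Mzb1 and Irf4 were each at most 0.0881 CPM and Tnfrsf17 was at 0 reads. Prdm1 was highest in knockout replicate 7 (3.64 CPM) and, among WT lines, in replicate 3 (0.862 CPM). These lines also had the highest Xbp1 of their groups, as given below, and a relation was not tested. Several lines stood apart. WT replicate 3 held 184 CPM of Col1a1 and 160 CPM of Col1a2, and knockout replicate 2 held the highest Krt5 (12403 CPM) and the lowest Epcam (40.8 CPM). Knockout replicate 5 had low values of long genes (Spearman's rho of deviation with length -0.68 over 9923 genes). The rho was -0.17 to 0.10 in the other knockout lines and -0.04 to 0.30 in WT lines. These ranges overlap, but WT lines reached higher values, so the trend with length also moves with genotype. Its part in the comparisons below was not tested.

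Many unfolded protein response genes carry in their promoters the ER stress response element (ERSE), which NF-Y and cleaved ATF6 or XBP1 occupy together. The promoter stretches below hold every match found among the 10 genes for the elements named in the next paragraph. They were not chosen by how the genes varied across lines. They are from RefSeq (build GRCm38.p6, GRCm38 being a build named in the submitters' processing notes), which held a promoter for 9 of the 10 genes. Gene positions in the text are from the same annotation. Sequences run 5′ to 3′ on the strand of the gene, and capitals mark the match, flanked by 15 bases on each side.
Hspa5, ERSE, chr2:34772010-34772058, plus strand: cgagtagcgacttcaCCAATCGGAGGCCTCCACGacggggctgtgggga
Hsp90b1, ERSE, chr10:86705623-86705671, minus strand: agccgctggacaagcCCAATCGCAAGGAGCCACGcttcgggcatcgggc
Hsp90b1, ERSE on the opposite strand, chr10:86705518-86705566, minus strand: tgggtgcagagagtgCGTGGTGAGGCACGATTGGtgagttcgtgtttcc
Calr, ERSE on the opposite strand, chr8:84847060-84847108, minus strand: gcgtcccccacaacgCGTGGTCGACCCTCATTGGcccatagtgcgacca
Herpud1, ERSE-II, chr8:94386362-94386402, plus strand: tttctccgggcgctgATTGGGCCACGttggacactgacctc
Herpud1, CARE on the opposite strand, chr8:94386302-94386339, plus strand: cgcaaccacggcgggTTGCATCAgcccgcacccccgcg

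Windows of 300 bases, from 250 before to 50 after the start of each gene, were searched on both strands for the ERSE (CCAAT and CCACG with 9 bases between them), the ERSE-II (ATTGG and CCACG with 1 base between them), the unfolded protein response element TGACGTGG and the element of C/EBP and ATF4 (CARE, TGATGNAA). None of the matches shown overlapped another. The ERSE was found in 3 of 9 windows (Hspa5, Hsp90b1, which held it on either strand, and Calr), where 0.119% of all 32851 RefSeq windows of this length hold it. The ERSE-II was found in Herpud1, against 0.0365% of all windows, and the CARE in Herpud1, against 3.97%. The unfolded protein response element was found in 0 of 9 windows, against 0.676% of all. Pdia4 had a window but no match to any of these elements. The match in Hspa5 began 65 bases before the start of the gene and that in Herpud1 52 bases before it. These genes are among the classical targets from which the elements were defined, so the matches describe the promoters and show no binding in these cells. The 250 bases before Hspa5 are given whole, with the ERSE in capitals, because this promoter is the textbook example of the element and holds further CCAAT boxes beside it.
Hspa5, chr2:34771840-34772089, plus strand: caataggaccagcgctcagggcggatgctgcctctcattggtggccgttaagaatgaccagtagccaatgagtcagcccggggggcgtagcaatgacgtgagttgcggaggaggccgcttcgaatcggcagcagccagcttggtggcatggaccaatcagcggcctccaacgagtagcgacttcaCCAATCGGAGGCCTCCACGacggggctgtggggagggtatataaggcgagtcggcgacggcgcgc

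The 10 genes covered a wide range of expression, which was compared on the TPM scale since it accounts for gene length. Over the 13 lines the mean level was highest for Calr (769 TPM), Hsp90b1 (645 TPM) and Hspa5 (615 TPM), all abundant proteins of the ER lumen. Pdia4 (129 TPM) and Xbp1 (115 TPM) came next, then Herpud1 (45.6 TPM), Ddit3 (31.3 TPM) and Dnajb9 (27.3 TPM), and the sensors Atf6 (14.3 TPM) and Ern1 (10.1 TPM) were lowest. Neighbours in this order were not always apart. Hsp90b1 exceeded Hspa5 in 8 of 13 lines, Pdia4 exceeded Xbp1 in 10 and Ddit3 exceeded Dnajb9 in 10, whereas Hspa5 was above Pdia4, Dnajb9 above Atf6, and Atf6 above Ern1 in all 13. Hspa5, Hsp90b1, Calr and Pdia4 together made up 0.182% to 0.416% of all TPM in WT lines and 0.140% to 0.219% in knockout lines. The upper end was WT replicate 3, and the next WT line was at 0.280%. The lower end was knockout replicate 5, the line with low values of long genes, and the next was knockout replicate 2 at 0.154%. In CPM knockout replicate 5 was the lowest of all lines for Pdia4 but not for Hspa5, Hsp90b1 or Calr.

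The comparison of knockout with WT lines asked whether loss of JNK changed the baseline level of these genes. In the test across all 13058 genes with enough reads (edgeR's quasi-likelihood test on counts, Benjamini-Hochberg adjusted p under 0.05), 0 of the 10 genes were higher and 0 were lower in knockout lines, where 4.33% of all genes tested were higher and 4.17% lower. At an unadjusted p under 0.05 there was 1 gene, Hspa5, against 26.3% of all genes tested. DESeq2 and limma-voom called 0 of the 10 as well, with 1 and 0 at an unadjusted p under 0.05. Over all alternatives the count at an unadjusted p under 0.05 ran from 0 to 3, with 3 on the TPM scales. The groups overlapped for all 10, where 4.05% of all genes did not overlap. The median log2 fold change of the 10 was -0.31 (knockout minus WT), with 4 above 0 and a range from -0.43 to 0.99, beside a median of 0.01 over all genes tested. Without WT replicate 3, without knockout replicate 2 and without both (the last chosen after seeing the data), the count of called genes stayed at 0. Since the libraries are bulk RNA, fewer cells of a type and less RNA per cell cannot be told apart. A p that misses the threshold does not show equal levels, and the intervals given with each gene state which differences these 13 lines leave possible.

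**Figure D1:**
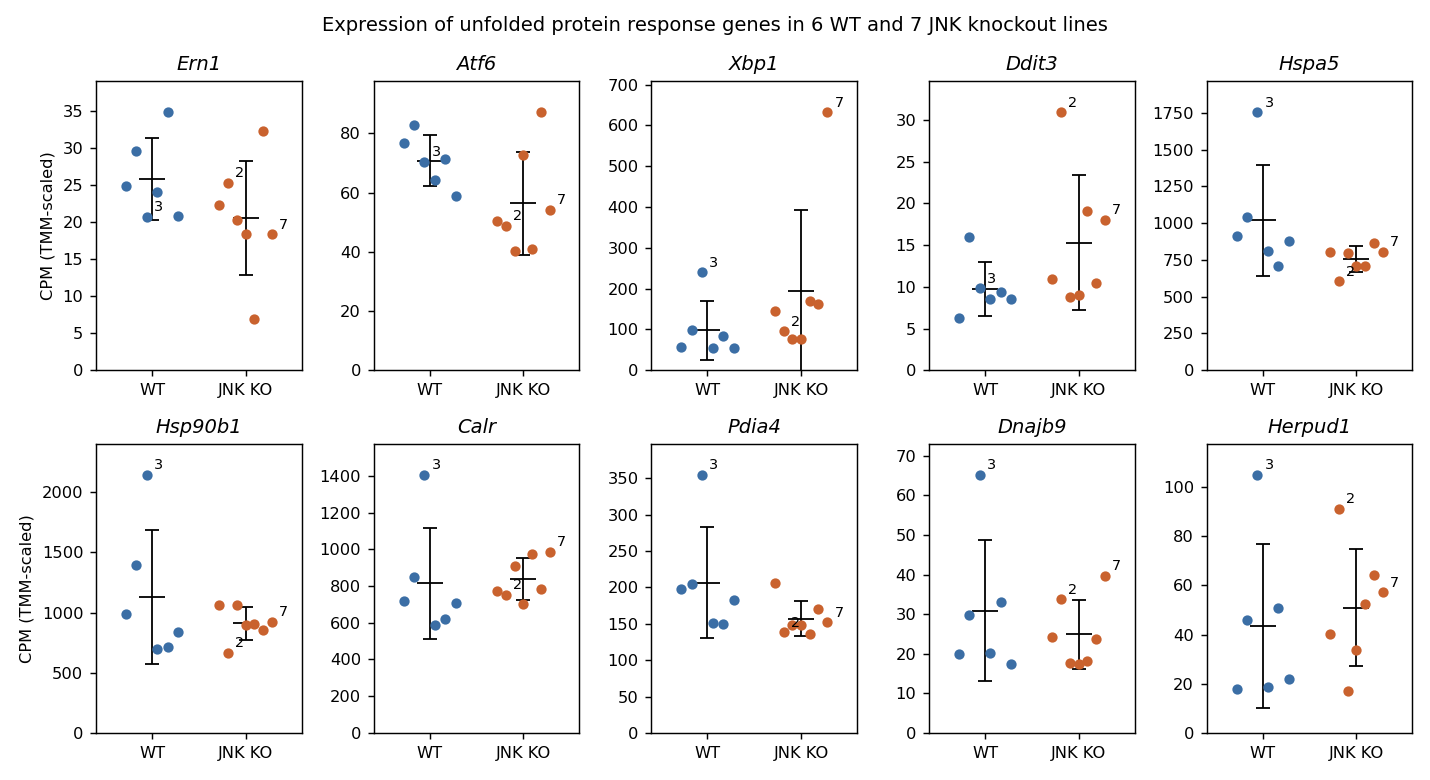
Expression of the 10 genes in each line. The vertical axis is CPM (TMM-scaled), each point is 1 line, the horizontal bar is the mean of 6 WT or 7 JNK knockout lines and the whiskers are the SD (cut at 0 for Xbp1). WT replicate 3 and knockout replicates 2 and 7 carry their number, and WT replicate 3 is the highest WT line in 7 of the 10 panels.

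From the lowest to the highest line, Ern1 spanned 4.68-fold among knockout lines (1.76-fold without replicate 5) and 1.68-fold among WT lines. Atf6 spanned 2.17-fold and 1.41-fold. Ern1 (chromosome 11, 106397620 to 106487796), the IRE1 kinase and endonuclease, ran from 20.7 CPM at the lowest over a median of 24.5 to 34.8 CPM in WT lines, and from 6.90 over 20.3 to 32.3 CPM in knockout lines. The lowest value belonged to knockout replicate 5, 3 other knockout lines lay just below the WT range at 18.4 to 20.3 CPM, and the remaining 3 lay within it. Knockout minus WT gave a log2 fold change of -0.33 (SE 0.27, 95% confidence interval -0.92 to 0.26, edgeR adjusted p = 0.47). Without knockout replicate 5 it was -0.18 (adjusted p = 0.59). Ern1 is longer than 71.9% of the genes compared for length, and the low values of long genes in that line move with this value. Their part in it was not tested.

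Atf6 (chromosome 1, 170704457 to 170868585), the sensor cleaved in the Golgi, was 58.7, 70.9 and 82.8 CPM at the lowest, median and highest WT line and 40.2, 50.4 and 87.2 CPM in knockout lines. In 5 of the 7 knockouts Atf6 was lower than in any WT line, replicate 4 was at 72.7 CPM and replicate 6 was above every WT line. Its log2 fold change was -0.33 (SE 0.18, interval -0.72 to 0.07, adjusted p = 0.28). Without knockout replicate 6 it was -0.46 with an adjusted p of 0.079, the smallest that any of the 10 genes reached in the fits that left out 1 line. Atf6 is longer than 95.5% of the genes compared. Without knockout replicate 5, the line with low values of long genes, its log2 fold change was -0.26 (adjusted p = 0.39).

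Xbp1 and Ddit3, which encode transcription factors, were the members with the largest positive log2 fold changes, and neither passed the test. Xbp1 (chromosome 11, 5520641 to 5525993), which is also known as a factor of secretory mammary epithelium, was 53.8, 70.4 and 240.0 CPM at the lowest, median and highest WT line and 76.1, 144.5 and 633 CPM in knockout lines. WT replicate 3 was the highest WT line, against 97.9 CPM for the next. Knockout replicate 7 was at 5.23-fold the mean of the other 6 knockout lines, which did not exceed 169 CPM. For Xbp1 the log2 fold change was 0.99 (SE 0.54, interval -0.18 to 2.16, adjusted p = 0.27). It was 0.31 (adjusted p = 0.67) when knockout replicate 7 was left out and 1.48 (adjusted p = 0.10) when WT replicate 3 was, so single lines moved it in both directions. With WT replicate 3 and knockout replicate 2 both left out it was 1.59 (adjusted p = 0.082).

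Ddit3 (chromosome 10, 127290793 to 127296291), the pro-death factor CHOP at the end of the PERK arm, was 6.30, 8.95 and 15.96 CPM at the lowest, median and highest WT line and 8.73, 10.9 and 31.0 CPM in knockout lines. Knockout replicates 2, 5 and 7, at 31.0, 19.1 and 18.1 CPM, were above every WT line in CPM, and the other 4 knockout lines, at 8.73 to 10.9 CPM, lay among the WT lines. The difference came to a log2 fold change of 0.65 (SE 0.33, interval -0.057 to 1.36, adjusted p = 0.23). With knockout replicate 2 left out it was 0.38 (adjusted p = 0.40), and with knockout replicate 5 left out 0.59 (adjusted p = 0.31). Ddit3 is longer than 5.25% of the genes compared. On the TPM scale 1 knockout line, replicate 2, was above every WT line, and the log2 fold change on log2(TPM + 1) was 0.34 (limma adjusted p = 0.42). At least 267 reads stood behind each value, so counting error was small beside the spread between lines.

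The abundant chaperones of the ER lumen had WT replicate 3 as their highest line, for all 4 genes. The WT range from lowest to highest line was 2.36 to 3.08-fold with it. Without it the range was 1.47-fold for Hspa5, 1.45-fold for Calr, 1.36-fold for Pdia4 and 2.004-fold for Hsp90b1, beside knockout ranges of 1.43, 1.41, 1.52 and 1.6001-fold. Hspa5 (chromosome 2, 34772090 to 34776529), which encodes BiP, the HSP70 of the ER, was 707, 897 and 1756 CPM at the lowest, median and highest WT line and 605, 799 and 868 CPM in knockout lines. The highest WT value was WT replicate 3, and the next was 1039.7 CPM. In CPM 5 of the 7 knockout lines lay within the WT range and 2 below it, replicate 5 narrowly (706.5 against 707.3 CPM). In TPM 5 of the 7 knockout lines were below every WT line. Hspa5 had a log2 fold change of -0.43 (SE 0.19, interval -0.84 to -0.010, adjusted p = 0.18 by edgeR). Leaving out WT replicate 3 gave -0.20 (adjusted p = 0.36). On log2(TPM + 1) Hspa5 was at -0.59 (limma adjusted p = 0.062), on a scale where the median of all genes was itself at -0.21.

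Hsp90b1 (chromosome 10, 86690841 to 86705444), which encodes GRP94, the HSP90 of the ER, was 696, 914 and 2146 CPM at the lowest, median and highest WT line and 666, 904 and 1066 CPM in knockout lines. All knockout lines but replicate 2 lay within the WT range. A log2 fold change of -0.31 was found (SE 0.25, interval -0.85 to 0.23, adjusted p = 0.46), which was -0.027 without WT replicate 3.

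Calr (chromosome 8, 84842088 to 84846931), the lectin chaperone and calcium store calreticulin, was 585, 714 and 1406 CPM at the lowest, median and highest WT line and 700.5, 786 and 986 CPM in knockout lines. Every knockout line lay inside the WT range. Its log2 fold change was 0.045 (SE 0.20, interval -0.38 to 0.47, adjusted p = 0.91), and the interval leaves folds from 0.768 to 1.39 possible. It was 0.27 without WT replicate 3, -0.035 without WT replicate 4 and -0.025 without WT replicate 5.

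Pdia4 (chromosome 6, 47796141 to 47813512), a protein disulfide isomerase of the ER, was 150.1, 190 and 355 CPM at the lowest, median and highest WT line and 135, 148 and 206 CPM in knockout lines. Pdia4 was lower than in any WT line in 4 knockouts, at 135 to 148 CPM, and replicate 1 lay above all WT lines but replicate 3. The log2 fold change was -0.40 (SE 0.19, interval -0.81 to 0.020, adjusted p = 0.21). Leaving out WT replicate 3 gave -0.18 (adjusted p = 0.45).

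Dnajb9 and Herpud1 are induced targets with lower levels. Dnajb9 (chromosome 12, 44205897 to 44210068), the BiP cochaperone ERdj4 that returns IRE1 to its resting state, was 17.4, 24.9 and 65.2 CPM at the lowest, median and highest WT line and 17.3, 23.7 and 39.8 CPM in knockout lines. The WT maximum was again replicate 3, and 6 of the 7 knockout lines lay inside the WT range. Dnajb9 had a log2 fold change of -0.31 (SE 0.32, interval -1.001 to 0.38, adjusted p = 0.57). It was 0.052 without WT replicate 3.

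Herpud1 (chromosome 8, 94386429 to 94395371), a membrane protein of ER-associated degradation, was 17.9, 34.0 and 105.0 CPM at the lowest, median and highest WT line and 17.1, 52.6 and 91.2 CPM in knockout lines. Knockout replicate 3 lay just below the WT range, replicate 2 was the highest of its group, and 6 of 7 lay within the WT range. For Herpud1 the log2 fold change was 0.23 (SE 0.45, interval -0.74 to 1.20, adjusted p = 0.79). It was 0.71 (adjusted p = 0.29) with WT replicate 3 left out and 0.024 with knockout replicate 2 left out.

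**Figure D2:**
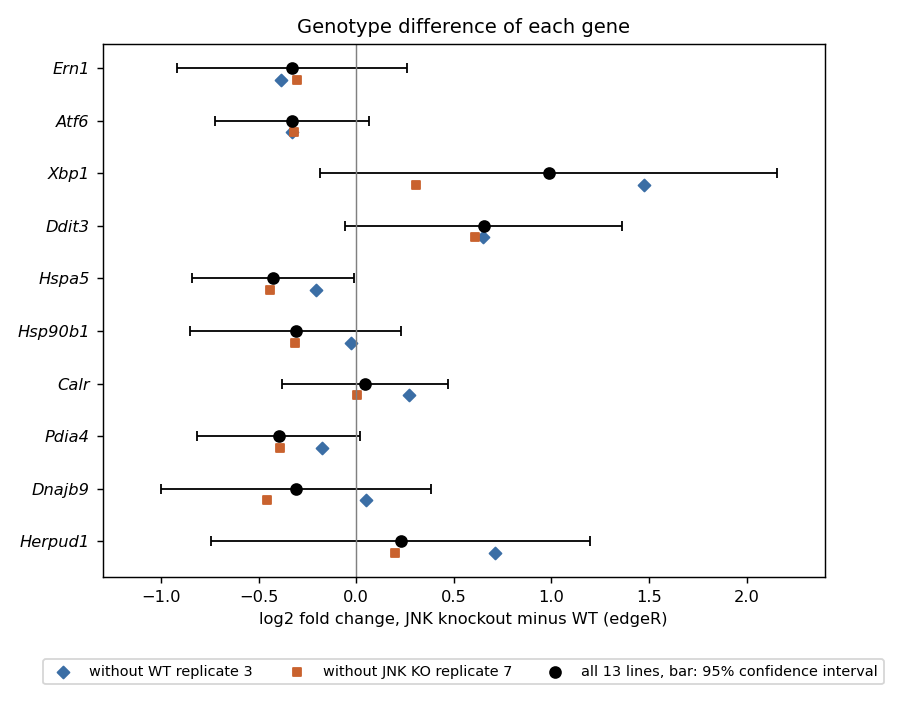
Log2 fold change of each of the 10 genes, knockout minus WT, from edgeR. Black points are all 13 lines with the 95% confidence interval, blue diamonds leave out WT replicate 3 and orange squares leave out knockout replicate 7. The interval of Hspa5 alone lies below 0 (-0.84 to -0.010, before adjustment for multiple tests), and Xbp1 moves from 0.99 to 1.48 or 0.31 with 1 line left out.

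Within groups the 10 genes did not vary as 1 block. Chaperones and induced targets moved together in WT replicate 3 while both sensors stayed with the other WT lines. In that line Xbp1 was 3.45-fold, Herpud1 3.37-fold and Dnajb9 2.71-fold the mean of the other 5 WT lines, and Hsp90b1, Calr, Hspa5 and Pdia4 were 2.32, 2.02, 2.02 and 2.01-fold that mean. Atf6 was at 0.995-fold, Ern1 at 0.772-fold and Ddit3 at 1.01-fold. In all, 7 of the 10 genes were at least 1.5-fold above the highest other WT line in replicate 3, where 8.61% of all genes tested were.

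The rest of the folding machinery was read in the same way, as a description of that line. Of 16 other ER oxidoreductases 5 (31.2%) were at least 1.5-fold above the highest other WT line and 9 (56.2%) had their highest value of all 13 lines there, where 14.8% of all genes tested did. Of the 22 translocon and signal peptide genes 7 (31.8%) did. The same fold was reached by 3 of 22 other ER chaperones, 4 of 23 genes of ER-associated degradation and 1 of 22 translocon and signal peptide genes. It was reached by 2 of 21 genes of the PERK and ATF4 branch (9.52%), by 0 of 18 cytosolic heat shock genes and by 0 of 10 mitochondrial chaperones and proteases. The median ratio of WT replicate 3 to the other WT lines was 1.44 for the oxidoreductases, 1.40 for the other ER chaperones, 1.39 for the translocon and signal peptide genes, 1.16 for ER-associated degradation, 0.790 for the PERK and ATF4 branch and 0.747 for cytosolic heat shock genes, beside 0.960 over all genes tested. Of 9 fibroblast markers Col1a1, Col1a2, Col3a1 and Pdgfrb were at 184, 160, 61.4 and 66.0 CPM in this line, Dcn was at 0.700 and Lum at 0.108 CPM, and the sum of the list, 1797 CPM, lay within the WT range of 609 to 4787 CPM, whose upper end held 4773 CPM of Fn1. Epcam was at 1407 CPM there, the highest of the WT lines. Other epithelial markers went the other way: Cdh1 (595 CPM), Cldn4 (84.3 CPM), Krt7 (450 CPM) and Krt5 (0.108 CPM) were at their lowest WT value. The remaining epithelial markers lay between the WT extremes, and the sum of that list, 6830 CPM, was the lowest of the WT lines. The part of these genes in the chaperone values was not tested.

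**Figure D3:**
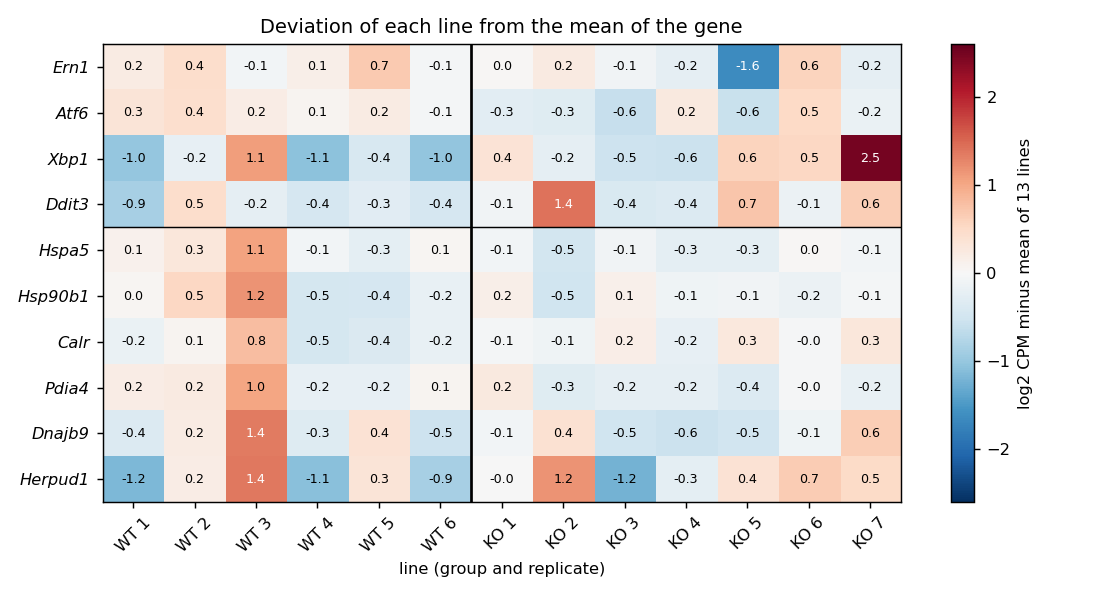
Deviation of each line from the 13-line mean of each gene, in log2 CPM (prior count 2), with 6 WT lines at the left and 7 knockout lines at the right of the vertical line. Rows above the horizontal line are the sensors and transcription factors, rows below it the chaperones and induced targets. WT replicate 3 is at 0.8 to 1.4 in all 6 lower rows, and knockout replicate 7 is at 2.5 for Xbp1 with Hspa5 at -0.1.

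Knockout lines showed other combinations. Knockout replicate 7 had the highest Xbp1 of all 13 lines, with Dnajb9 at 1.77-fold, Calr at 1.21-fold and Herpud1 at 1.15-fold the mean of the other knockout lines but Hspa5 at 1.08, Hsp90b1 at 1.02 and Pdia4 at 0.964-fold. Knockout replicate 2 had the highest Ddit3 of all lines (31.0 CPM) and the highest Herpud1 of its group (91.2 CPM), together with the lowest Hspa5 and Hsp90b1 of all lines (605 and 666 CPM). That line held low Epcam and high Krt5, as given above. Of the fibroblast markers it had the highest Fn1 (3147 CPM), Pdgfra (20.0 CPM), Col3a1 (27.7 CPM) and Col1a1 (3.41 CPM) of the knockout lines, but not the highest Col1a2, Pdgfrb, Dcn or Thy1. The part of these marker differences was not tested. The highest and lowest knockout lines differed 8.32-fold for Xbp1 (2.22-fold without replicate 7) and 5.34-fold for Herpud1 (2.70-fold without replicate 3).

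Likeness to Hspa5 was described over the 13 lines after each group mean was subtracted from log2 CPM. Among the other 9 genes Pearson's r was 0.92 for Hsp90b1, 0.92 for Pdia4, 0.86 for Calr, 0.58 for Xbp1 and 0.54 for Dnajb9, and it was 0.38 for Herpud1, 0.18 for Atf6, -0.09 for Ern1 and -0.12 for Ddit3. Without WT replicate 3 the values were 0.81 for Hsp90b1, 0.74 for Pdia4, 0.55 for Calr and 0.29 for Xbp1, and -0.13 for Dnajb9 and -0.26 for Herpud1, so both induced targets correlated with Hspa5 only with that line included. Outside the list, the 5 most alike of 10642 genes with a mean of at least 5 CPM were C2cd5 (0.93), Ergic2 (0.92), Magt1 (0.92), Alg9 (0.91) and Spidr (0.91). Without WT replicate 3 their ranks were 4, 48, 2, 140 and 15. Alg9 is a mannosyltransferase of N-glycan assembly in the ER, Magt1 a subunit of an oligosaccharyltransferase, and Ergic2 a protein of the compartment between ER and Golgi. These descriptions do not extend to C2cd5, the closest gene, or to Spidr, and the 5 genes are not read as an ER group. The correlations have no p, since they come from the same libraries and the genes were ranked by them.

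Other genes of ER protein handling were examined in 8 lists, which hold no gene of the 10. Of 144 tested list genes 7 were higher and 4 lower in knockout lines (7.64%, beside 8.51% of all genes tested), and their median log2 fold change was 0.09. The count depended on single lines, from 2 to 7 higher and 1 to 5 lower with 1 line left out, with 2 higher without WT replicate 1 and 1 lower without knockout replicate 1. Without both WT replicate 3 and knockout replicate 2 there were 4 higher and 1 lower. The lists of other sensors and transducers (12 tested) and of mitochondrial chaperones and proteases (10 tested) had 0 called genes by edgeR, with 2 genes each at an unadjusted p under 0.05. DESeq2 called 1 gene of each list as higher.

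Among the other sensors and transducers the median log2 fold change was -0.11. Eif2ak3, the PERK sensor, named after its values were seen because it completes the trio, averaged 63.1 ± 18.96 CPM over WT lines and 43.3 ± 19.7 CPM over knockouts (log2 fold change -0.54, SE 0.28, adjusted p = 0.24), with 5 of 7 knockout lines below every WT line and replicate 6 at 82.5 CPM. Eif2ak3 is longer than 79.0% of the genes compared for length, and the part of length was not tested. Rtcb, the ligase that joins Xbp1 mRNA after IRE1 has cut it, had the smallest p. It was 134, 175 and 202 CPM at the lowest, median and highest WT line and 197, 215 and 248 CPM in knockout lines, with 5 of 7 above every WT line (log2 fold change 0.36, SE 0.11, edgeR adjusted p = 0.063, DESeq2 adjusted p = 0.013). On log2(TPM + 1) it was at 0.14 (adjusted p = 0.45).

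The PERK and ATF4 branch, to which Ddit3 belongs by function, had 2 genes higher and 1 lower of 21 tested, with a median log2 fold change of 0.25 and 16 above 0. DESeq2 called 6 higher and 1 lower. Sesn2, a stress-induced inhibitor of mTORC1, rose 2.85-fold, from 22.9 ± 8.54 CPM in WT to 65.3 ± 28.2 CPM in knockouts (log2 fold change 1.51, SE 0.35, edgeR adjusted p = 0.020). The highest WT line was at 32.04 CPM, and 6 of 7 knockout lines were above it, the lowest of them at 32.3 CPM. Asns, asparagine synthetase, rose 2.13-fold, from 82.6 ± 23.5 to 175.9 ± 71.5 CPM (log2 fold change 1.09, SE 0.27, adjusted p = 0.027), with the call lost without WT replicate 1, 2, 3 or 6. On log2(TPM + 1) Sesn2 was not called (adjusted p = 0.056). Bcl2l11, the pro-death BH3-only protein BIM that CHOP is known to induce, fell by 0.84 on the log2 scale, from 46.1 ± 7.81 to 25.7 ± 4.56 CPM (SE 0.16, adjusted p = 0.0082). Every knockout line had less Bcl2l11 than any WT line, and the call held in all 13 fits that left out 1 line. Bcl2l11 is longer than 81.4% of the genes compared for length, and the part of length in its values was not tested. Atf4 itself, named after its values were seen, went from a WT mean of 249.8 ± 30.4 CPM to 415 ± 164 CPM and missed the threshold (log2 fold change 0.73, SE 0.22, adjusted p = 0.053), though 6 of 7 knockout lines were above every WT line. Knockout replicate 5 held 759 CPM of Atf4, and without that line the log2 fold change was 0.52 (adjusted p = 0.044). Atf4 was called without knockout replicate 1 as well, and by DESeq2 (adjusted p = 0.013). On log2(TPM + 1) it was at 0.40 and not called (adjusted p = 0.12).

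Other ER chaperones and cochaperones had 0 genes higher and 2 lower of 22 tested, with a median of -0.05. Dnajc10, the reductase ERdj5 that works with BiP, fell from 230.2 ± 22.7 to 171 ± 17.5 CPM (log2 fold change -0.43, SE 0.11, adjusted p = 0.026), with 6 of 7 knockout lines below every WT line. The call was lost without WT replicate 3, WT replicate 4 or knockout replicate 1. Dnajc10 is longer than 73.0% of the genes compared for length, and the part of length was not tested. Rcn2, a calcium-binding protein of the ER lumen, fell from 129.8 ± 13.4 to 89.1 ± 17.4 CPM (log2 fold change -0.54, SE 0.14, adjusted p = 0.029). Its call was lost without WT replicate 1, 2 or 6 or without knockout replicate 1 or 7.

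Among 16 other ER oxidoreductases, partners of Pdia4 in disulfide formation, 1 was higher and 0 were lower, with a median of 0.03. Erp29, a chaperone related to the disulfide isomerases, rose from 78.7 ± 10.1 to 112 ± 23.9 CPM (log2 fold change 0.51, SE 0.14, adjusted p = 0.041), and all 7 knockout lines were above every WT line. The call was kept in 3 of 13 fits with 1 line left out (those without knockout replicate 3, 5 or 6), and on log2(TPM + 1) Erp29 was not called (adjusted p = 0.10). Of 23 genes of ER-associated degradation, the pathway of Herpud1, 1 was higher, with a median of 0.04 (DESeq2 called 3 higher and 1 lower). This was Ube2g2, a ubiquitin-conjugating enzyme of the pathway, with 71.4 ± 20.5 CPM as the WT mean and 107 ± 7.72 CPM as the knockout mean (log2 fold change 0.59, SE 0.17, adjusted p = 0.043). Its call was kept in 3 of 13 such fits (without WT replicate 4 or 6 or knockout replicate 2).

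The translocon and signal peptide list had 2 genes higher and 1 lower of 22 tested, with a median of 0.06. Ssr4, a subunit of the translocon-associated complex, rose from 57.8 ± 13.97 to 102 ± 26.2 CPM (log2 fold change 0.81, SE 0.20, adjusted p = 0.023), with all 7 knockout lines above every WT line and the call held in all 13 fits that left out 1 line. Sec61g, the smallest subunit of the SEC61 channel, rose from 59.2 ± 12.6 to 94.3 ± 21.8 CPM (log2 fold change 0.67, SE 0.17, adjusted p = 0.027), not called without WT replicate 1, 4, 5 or 6 or knockout replicate 1. Knockout replicate 5 was the highest line for Erp29, Ssr4 and Sec61g (165, 154.5 and 140 CPM), which are longer than 12.5%, 3.74% and 3.66% of the genes compared for length, and was the line where long genes were low. Without it the log2 fold changes were 0.39, 0.68 and 0.55, and all 3 genes were called. Leaving out that line does not remove the difference in length trend between the groups, given above. Rpn2, a subunit of the oligosaccharyltransferase, fell from 455 ± 74.6 to 322 ± 46.0 CPM (log2 fold change -0.50, SE 0.14, adjusted p = 0.038), with the call kept in 2 of 13 fits (without WT replicate 5 or knockout replicate 5).

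Chaperones outside the ER were read for comparison. Of 18 cytosolic heat shock genes 1 was higher, with a median log2 fold change of 0.14. This was Hspb8, a small heat shock protein, with a mean of 1.03 ± 1.24 CPM over WT and 30.4 ± 43.7 CPM over knockouts (log2 fold change 4.89, SE 1.33, adjusted p = 0.038). Knockout replicate 2 held 122 CPM, and replicates 4 and 6, at 2.59 and 0.649 CPM, lay within the WT range. Without knockout replicate 2 its log2 fold change was 3.88 (adjusted p = 0.059), and limma-voom did not call it (adjusted p = 0.19). The call of Hspb8 was kept in 4 of 13 fits with 1 line left out (without WT replicate 4 or knockout replicate 4, 5 or 6). Among mitochondrial chaperones and proteases, where 9 of 10 log2 fold changes were above 0 with a median of 0.16, Hspe1, the cochaperonin HSP10, had the smallest p (145 ± 26.5 against 225.5 ± 69.4 CPM, log2 fold change 0.63, adjusted p = 0.062). Hspe1 is longer than 3.94% of the genes compared, and its log2 fold change was 0.48 without knockout replicate 5 (adjusted p = 0.082) and 0.40 on log2(TPM + 1) (adjusted p = 0.12). Of 13 fits with 1 line left out 1 called it, that without knockout replicate 6 (adjusted p = 0.039).

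**Figure D4:**
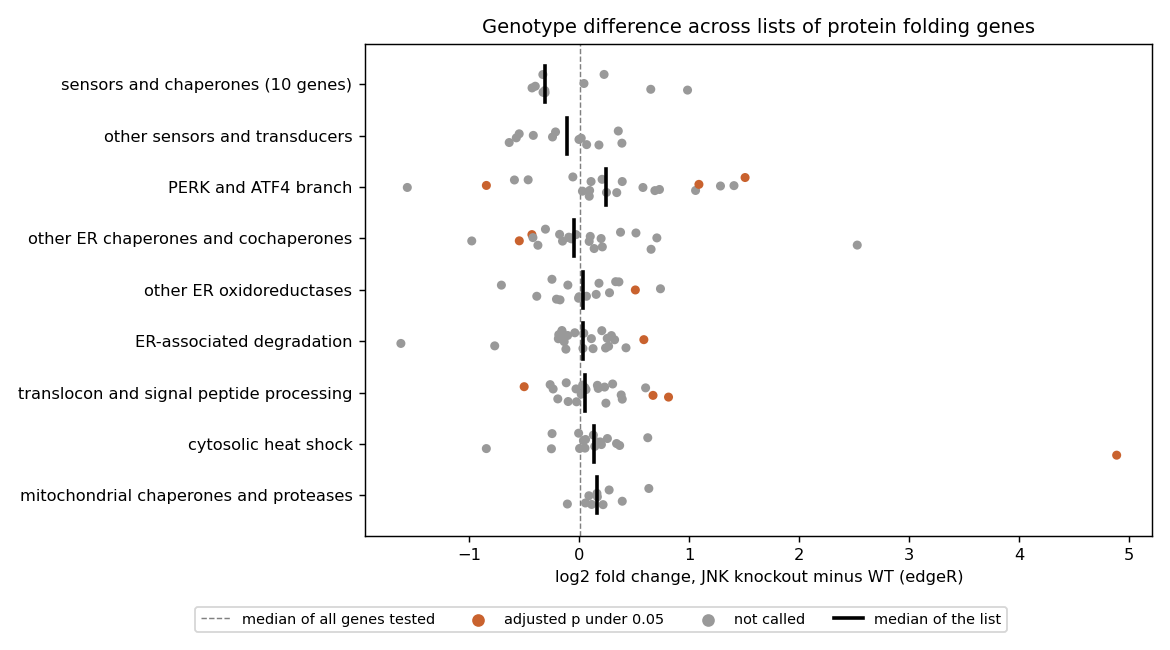
Log2 fold change, knockout minus WT, of each tested gene in the 10-gene list and in the 8 other lists of protein folding genes (edgeR). Orange points have an adjusted p under 0.05, grey points do not, the black bar is the median of the list and the dashed line the median of all genes tested (0.01). The top row holds 0 orange points, and the median of the lists runs from -0.31 in that row to 0.25 for the PERK and ATF4 branch.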

How the data were processed

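The authors deposited RSEM expected counts per gene, and the submitters' processing notes name cutadapt, RSEM and the builds mm10 and GRCm38. They also deposited TPM (length-scaled abundances) from RSEM for the same genes and lines. Aligner, annotation release, strand setting and tool versions: not given in the sources used here. RSEM shares ambiguous reads among genes, so values of near-identical copies (Hspa1a and Hspa1b, Hspe1 and its pseudogenes) are uncertain, as are overlapping antisense genes. Expected counts were rounded, genes kept by filterByExpr (13058), libraries scaled by TMM, and 7 knockout lines compared with 6 WT lines by edgeR's quasi-likelihood F test with group as the only term (edgeR 4.0.16, R 4.3.3), with Benjamini-Hochberg adjustment over the 13058 genes and calls at an adjusted p under 0.05. The approximate SE is the absolute log2 fold change over the root of F, and intervals are at 95%. Alternatives used DESeq2 1.42.0, limma 3.58.1, other scalings and filters, TPM, and leaving out lines. The script was tested on simulated data.

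The 10 genes and 8 lists were chosen with earlier results of these data known. Genes named from lists were up to 3 called genes with the lowest adjusted p, or the gene with the smallest p where none was called, and for likeness the 5 genes closest to Hspa5. Eif2ak3 and Atf4 were added after their values were seen. All 145 list genes were found, some under older symbols (Ero1l, Ero1lb, Vimp and Ufd1l). Of the marker genes, Adgre1 and Igkc were not used here. Length was taken from the ratio of counts to TPM. No pair of libraries in a group agreed within sampling noise (chi-square per gene 74.6 for WT replicates 4 and 6, the closest pair).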

Additional observations from a re-analysis of the deposited data

Results flagged for a closer look

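A line was marked where its gap to the nearest line of its group, as a share of the range of the group in CPM, passed Dixon's 95% critical value (0.625 for 6 WT and 0.568 for 7 knockout lines). Chance would mark about 1 group in 20 if the values were normally distributed, which CPM need not be. The rule was applied to 54 groups of genes named here, of which 16 were marked. No rate over all genes tested was computed, so the count for the 10 genes is not read as an excess. Of 20 groups of the 10 genes 7 were marked. In WT replicate 3 the share was 0.763 for Xbp1, 0.733 for Pdia4, 0.683 for Hspa5, 0.680 for Calr and 0.674 for Dnajb9. These genes come from the same library and are not independent marks. The other members marked were Xbp1 in knockout replicate 7 (0.833) and Ddit3 in WT replicate 2 (0.637, 15.96 CPM against 9.81 CPM for the next line).

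Among the other genes named, knockout replicate 5 was far from its group for Erp29 (0.756), Ssr4 (0.637), Atf4 (0.634), Sec61g (0.628), Hspe1 (0.596) and Mapk9 (0.583), the last as the lowest line at 8.90 CPM. WT replicate 3 was marked for Sec61g (0.746), WT replicate 2 for Mapk9 (0.725) and knockout replicate 2 for Hspb8 (0.616).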

How the results depend on the processing

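No alternative called any of the 10 genes, and their smallest adjusted p was 0.061 (Hspa5 on log2(TPM + 0.1)). With 1 line left out, genes called over the whole table ran from 324 to 649 higher and from 316 to 592 lower, list genes from 2 to 7 higher and from 1 to 5 lower, and the 10 genes stayed at 0. DESeq2 called 1130 genes higher and 977 lower, with 15 list genes higher. On log2(TPM + 1) there were 271 higher and 936 lower (3 and 7 list genes), on log2(TPM + 0.1) 294 and 916 (4 and 7), and without a filter on low TPM 227 higher (2 list genes). These TPM scales move the median of all genes to -0.21, -0.23 and -0.06. With WT replicate 3 and knockout replicate 2 both left out, an alternative chosen after seeing the data, 4 list genes were higher and 1 lower. The sign of the log2 fold change turned for Calr on the TPM scales (-0.13 in each), and with WT replicates 4 and 5 summed (-0.027), and for Hsp90b1 without WT replicate 3 and knockout replicate 2 (0.037). With 1 line left out, Calr ran from -0.035 (without WT replicate 4) to 0.27 and was below 0 without WT replicate 5 as well, and Dnajb9 ran from -0.46 to 0.052 (without WT replicate 3). The cause was not tested. For the 13 called genes named, Mapk8 and Mapk9 included, 130 of 156 values under the 12 other alternatives and 112 of 169 with 1 line left out kept the call, and the rest kept the direction. No paired analysis was possible because the titles give no replicate number and nothing pairs lines across groups. Depth was not a limit for the 10 genes, each with at least 255 reads in every line.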
